A study of Mus musculus with 4 samples.

Results

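Splicing factor genes were followed here as 1 set of 73 genes among the 31053 genes counted in the series. Members were chosen by symbol alone: Snrp, Srsf, Sf3a, Sf3b, Hnrnp, Prpf and Lsm genes, without pseudogenes. By role they were 8 genes of the Sm core ring, 4 U1 or U2 snRNP-specific genes, 8 genes of the LSm rings, 9 SF3a and SF3b genes, 13 PRPF genes, 11 SR protein genes and 20 hnRNP genes. All 73 had UMIs (unique molecular identifiers, 1 per counted RNA molecule) in each of the 4 libraries, 1374331 in all kept cells.

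The study profiled single cells from the ipsilateral hemisphere of 8-week-old male mice after transient middle cerebral artery occlusion (tMCAO), in which a brain artery is blocked and then reopened. The 4 groups were sham surgery, sampled at day 7, and tMCAO sampled at day 1, day 3 or day 7. Tissue was dissociated with papain and cleared with Percoll. Each group was 1 library, and neither the number of animals in it nor any pooling was stated. The labels name no strain and no allele, and the study's methods name C57/BL6 mice. Each difference below therefore compares 2 libraries, has no replicate check and carries no p-value. Intervals are exact 95% intervals of the counts and cover counting error only. The 3 days share the same sham library.

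Pre-mRNA splicing removes introns from new transcripts and is carried out by the spliceosome. Its small nuclear RNAs sit in a ring of Sm proteins or, for U6, of LSm proteins. A related LSm ring with Lsm1 acts in mRNA decay in the cytoplasm. SF3a and SF3b bind the branch point as parts of the U2 particle, and PRPF proteins help to assemble and remodel the complex. SR proteins mostly favour the use of nearby exons, and hnRNP proteins coat nascent RNA and often oppose it. In the brain, neurons are known for a particularly rich use of alternative exons. Microglia are the resident macrophages of the brain, and Itgb2 is an integrin subunit. The study relates RNA splicing, together with the cell cycle, to the subcluster sc_S4 of Itgb2-expressing microglia on day 1. It did so by enrichment of terms among the genes that mark the subcluster.

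After the filter of the study's methods, which keeps cells of 200 to 3000 genes with no more than 10% of UMIs from mitochondria, 44360 of 59429 barcodes remained, between 7562 and 14044 per library. Their median depth ran from 2507.5 to 3731.5 UMIs. Cells were given a class from marker genes that include no member, and are called microglia-like and so on. Of the kept cells, 40515 had a class and 2709 lay near the limit of the rule. The study reports more cells after its filter, and a much larger share of microglia in every group, than were found here. There were 123 microglia-like cells after sham surgery, and 499, 356 and 268 of them on days 1, 3 and 7. All 12 microglia markers were detected in them, the leading genes outside the markers included Ctss, Ly86 and Fcrls, and 97.4% fell into the cluster with the same name. Endothelial-like, oligodendrocyte-like, vascular smooth muscle-like and pericyte-like cells also passed 50 cells in every library. Of them 96.4%, 99.7%, 87.4% and 96.6% fell into clusters with the same name. Between 33 and 88 barcodes were shared by any 2 libraries, at most 0.562% of the smaller one.

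The summed level of the 73 genes in microglia-like cells was nearly flat. It was 8451 CPM (UMIs scaled to the same total in every class and library) in the sham library, 8442 on day 1, 8079 on day 3 and 8137 on day 7. Relative to sham these were ratios of 0.999 (0.962 to 1.04), 0.956 (0.919 to 0.995) and 0.963 (0.924 to 1.00). The day 1 total depended on 4 choices. It was 1.07 without mitochondrial, ribosomal protein, Malat1, Gm42418 and AY036118 UMIs in the denominator. It was 1.12 when cells with up to 6000 genes were kept, 1.12 without Srsf5, and 0.836 when microglia-like cells with a UMI of the cell cycle list were left out. The day 3 ratio turned to 1.01 without Srsf5, and the day 7 ratio to 1.03 with classes from clustering.

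In the other 4 classes the total stood above sham on days 3 and 7, except that the oligodendrocyte-like day 7 ratio turned to 0.998 (0.986 to 1.01) without mitochondrial, ribosomal protein, Malat1, Gm42418 and AY036118 UMIs in the denominator. Endothelial-like cells had 8822 CPM in the sham library and 9026, 9533 and 9970 CPM on days 1, 3 and 7. Pericyte-like cells had 9860, 10278, 11094 and 11531 CPM in the same order, and vascular smooth muscle-like cells 8100, 8015, 8993 and 9135 CPM. Both mural classes were therefore highest on day 7. Oligodendrocyte-like cells, the myelin-forming class, peaked on day 3, with 7619, 7764, 8303 and 7786 CPM. In bulk sums of a class, a change in the makeup of the class and a change per cell cannot be told apart.

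**Figure D1:**
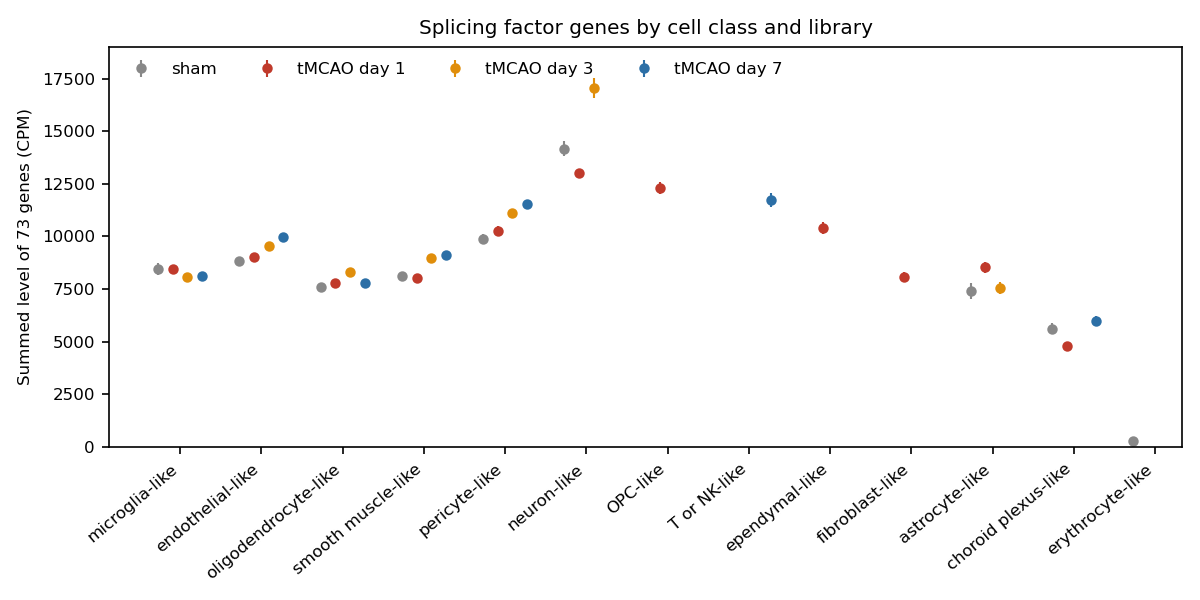
Summed level of the 73 splicing factor genes (CPM, linear axis) in each marker-gated class with at least 50 cells in a library; points are libraries, coloured by group, and bars are exact 95% counting intervals. Neuron-like cells stand highest, at 14163, 12997 and 17046 CPM in the sham, day 1 and day 3 libraries, choroid plexus-like and erythrocyte-like cells lowest, and microglia-like cells stay between 8079 and 8451 CPM.

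The flat total in microglia-like cells hid a split by role on day 1. The genes of the Sm core ring together moved from 794 CPM in the sham library to 1492 CPM on day 1, which is 1.88 (1.67 to 2.12) times as much. The LSm rings moved from 363 to 852 CPM, 2.35 (1.98 to 2.81) times as much. Without cells that had a cell cycle UMI both ratios were smaller, 1.38 (1.20 to 1.61) for the Sm ring and 1.37 (1.11 to 1.70) for the LSm rings. SR proteins moved the other way, from 2809 to 1716 CPM, at 0.611 (0.571 to 0.654) times the sham level. PRPF genes had a ratio of 0.797 (0.692 to 0.921) and SF3a and SF3b genes 0.859 (0.765 to 0.967). The U1 and U2-specific genes (0.958, 0.774 to 1.20) and the hnRNP genes (1.06, 0.993 to 1.13) had intervals that held 1. The small ring proteins and the SR proteins thus moved in opposite directions while their sum stayed level. The SR sum was also below sham on day 1 in the other main classes, by less. It was 0.884 (0.869 to 0.898) in endothelial-like and 0.878 (0.855 to 0.902) in oligodendrocyte-like cells. In vascular smooth muscle-like cells it was 0.852 (0.823 to 0.883), and in pericyte-like cells 0.856 (0.800 to 0.916).

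On day 3 the same roles stood closer to sham. The ratio was 1.14 (1.00 to 1.30) for the Sm ring, 1.20 (0.999 to 1.46) for the LSm rings and 0.808 (0.753 to 0.867) for SR proteins, the last at 0.958 (0.876 to 1.05) without Srsf5. On day 7 the 2 ring groups had ratios of 0.894 (0.780 to 1.03) and 0.906 (0.740 to 1.11). When cells were thinned to 1000 UMIs the day 7 LSm ratio turned to 1.45 (0.902 to 2.40). SR proteins were at 0.764 (0.710 to 0.823) and the hnRNP group at 1.26 (1.17 to 1.35).

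**Figure D2:**
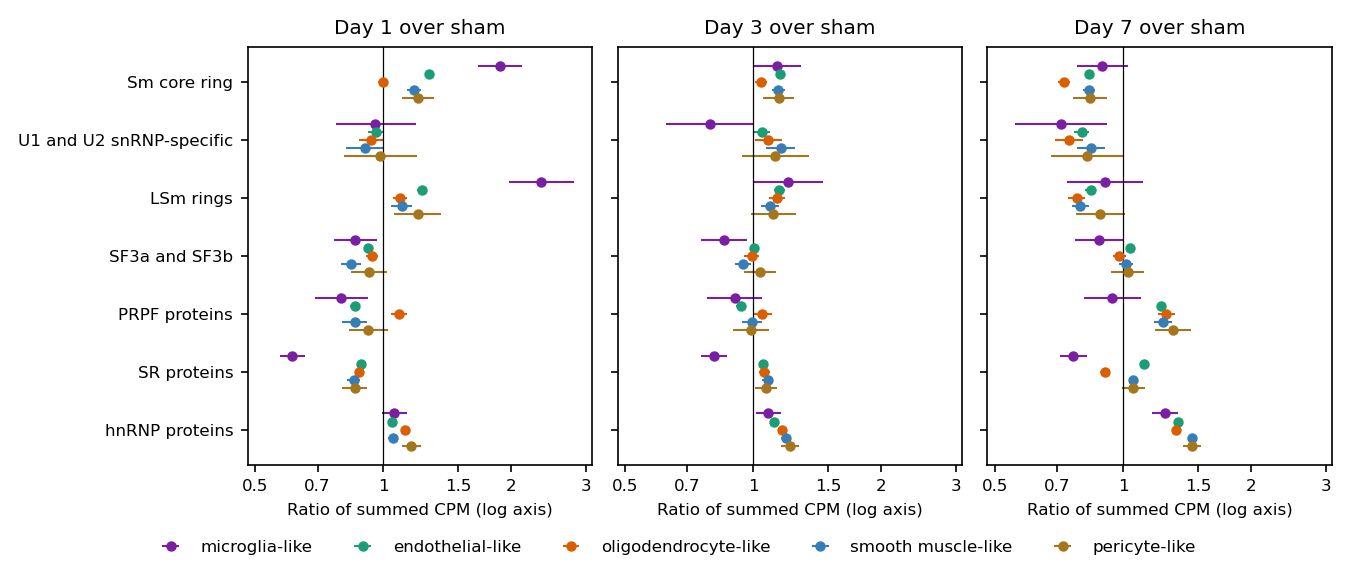
Ratio of the summed CPM of each role group on days 1, 3 and 7 to the sham library (log axis) in 5 classes, with exact 95% counting intervals. On day 1 microglia-like cells lie furthest right for the Sm and LSm rings (1.88 and 2.35) and furthest left for SR proteins (0.611). SR proteins lie left of 1 in all 5 classes on day 1. The hnRNP group lies right of 1 in all 5 classes on every day, furthest on day 7.

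Single members were compared where the mean over the 4 libraries reached 20 CPM in the class. A gene was called higher or lower when its ratio with 5 CPM added to both levels was at least 1.5-fold and its counting interval left out 1. In microglia-like cells 67 of the 73 members passed the level limit. Those that did not were Srsf12, without a UMI in this class, Snrpn, Prpf3, Prpf4, Prpf18 and Prpf40b. On day 1, 16 members (23.9%) were called higher and 11 (16.4%) lower, against 15.5% higher and 23.3% lower among all 5486 genes compared. The median log2 ratio, with 5 CPM added, was 0.06 over the members and -0.15 over all genes. Among members more were thus called higher than lower, and among all genes more lower than higher. By role, 5 of 7 Sm ring genes and 6 of 8 LSm genes were called higher and none lower, while 4 of 10 SR genes were called lower and none higher.

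Among the Sm ring genes, whose products encircle the spliceosomal RNAs, Snrpe had the largest ratio. Its level was 84.3 CPM in the sham library (33 UMIs), 286 on day 1, 168 on day 3 and 113 on day 7. The day 1 ratio was 3.39 (2.39 to 4.98) and the day 3 ratio, also called, 1.99 (1.38 to 2.97). In thinned cells the day 3 call ended, at 1.92 (0.997 to 4.06). The day 1 interval of the level lay above that of every other library. Snrpd1 stood at 63.9, 167, 86.1 and 61.5 CPM, with a day 1 ratio of 2.62 (1.74 to 4.10). Snrpd2, Snrpf and Snrpg were also called, with ratios of 2.51, 1.95 and 1.85. Without cells that had a cell cycle UMI, Snrpd1 (1.39, 0.836 to 2.40), Snrpf (1.42, 0.948 to 2.17) and Snrpg (1.27, 0.854 to 1.93) were no longer called, while Snrpe and Snrpd2 were. Snrpg (1.52, 0.842 to 2.97) also lost its call in thinned cells. Snrpd3 had a ratio of 1.51 (0.992 to 2.39) and was not called. Snrpb, which encodes the B and B' proteins of the ring, did not follow the others on day 1. Its levels were 230, 238, 176 and 157 CPM, and its day 1 ratio was 1.03 (0.824 to 1.31).

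Most LSm genes were also highest on day 1. Lsm5 stood at 35.8 CPM in the sham library (14 UMIs), 120 on day 1, 49.6 on day 3 and 37.1 on day 7, a day 1 ratio of 3.37 (1.97 to 6.26). Lsm4 stood at 71.5, 228, 102 and 64.6 CPM, a ratio of 3.19 (2.18 to 4.86). Lsm2, with 8 UMIs in the sham library, had 20.4, 76.1, 31.4 and 26.5 CPM and a ratio of 3.72 (1.84 to 8.78). For each of these genes day 1 was the one high library. Without cells that had a cell cycle UMI, Lsm2 (1.32, 0.537 to 3.70) and Lsm5 (1.70, 0.881 to 3.53) were no longer called, and Lsm4 was at 1.76 (1.12 to 2.85). Lsm3, Lsm6 and Lsm7 were called with ratios of 2.41, 2.10 and 1.74, and none of the 3 without those cells (1.65, 1.19 and 1.39). In thinned cells Lsm2 gave no ratio and the Lsm3 call ended (2.09, 0.643 to 10.8). Lsm8, the subunit that marks the nuclear ring, was at 1.41 (0.788 to 2.75), and Lsm1, the subunit that marks the decay ring, at 0.890 (0.443 to 1.98). No LSm gene was called on day 3 or day 7.

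Srsf5, an SR protein, carried much of the SR change. Its level in microglia-like cells was 1144 CPM in the sham library (448 UMIs), 285 on day 1, 674 on day 3 and 835 on day 7. The day 1 ratio was 0.249 (0.220 to 0.283), the lowest of the members compared, and the day 3 ratio of 0.589 (0.525 to 0.663) was also called. The 4 levels did not overlap in their intervals. Srsf5 made up 40.7% of the SR UMIs in the sham library, then 16.6%, 29.7% and 38.9% on days 1, 3 and 7. Without it the SR ratio on day 1 was 0.859 (0.789 to 0.937).

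Srsf7, another SR protein, was called lower on all 3 days, with levels of 268, 144, 170 and 89.0 CPM. The ratios to sham on days 1, 3 and 7 were 0.538 (0.429 to 0.679), 0.636 (0.5001 to 0.812) and 0.332 (0.246 to 0.447). The day 3 call ended with classes from clustering (0.702, 0.558 to 0.888), in thinned cells (0.794, 0.470 to 1.38) and without the highest doublet scores (0.683). Unlike Srsf5, it was lowest on day 7. Srsf6 and Srsf10 were called lower on day 1, at 0.620 and 0.646, and Srsf6 again on day 7, at 0.654. Neither day 1 call was left in thinned cells (0.720 and 0.696) or with the other denominator (0.662 and 0.690). The day 7 Srsf6 call also ended in thinned cells (0.938), with the other denominator, with classes from clustering (0.711) and without cells that had a cell cycle UMI (0.786). Srsf9 was the SR gene with the ratio furthest above 1 whose interval left out 1, at 1.49 (1.22 to 1.83), and did not pass the fold.

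In the SF3 group, small SF3b subunits and Sf3a2 and Sf3a3 went in opposite directions. Sf3b5 (1.53, 1.09 to 2.21) and Sf3b6 (1.72, 1.14 to 2.69) were called higher on day 1. Neither was called in thinned cells (1.34 and 2.46) or without cells that had a cell cycle UMI (1.12 and 1.53). Sf3b1, the large branch point subunit, was called lower at 0.631 (0.522 to 0.767), with levels of 363, 229, 291 and 332 CPM. Its call ended with classes from clustering (0.668, 0.562 to 0.797) and with the other denominator (0.6735, 0.557 to 0.819). Sf3a3 stood at 53.6, 23.7, 36.4 and 24.4 CPM, with ratios of 0.442 (0.260 to 0.777) on day 1 and 0.454 (0.240 to 0.863) on day 7, both called. Sf3a2 stood at 66.4, 32.1, 38.9 and 21.2 CPM and was called lower on all 3 days, with ratios of 0.484, 0.586 and 0.319. Each of these SF3a levels rests on 20 to 65 UMIs. When cells were thinned, no Sf3a2 call was left, and its day 1 ratio was 0.975 (0.358 to 3.31). With classes from clustering the day 3 Sf3a2 call ended too. Of the 3 members called lower on day 3, 2 kept their call without cells that had a cell cycle UMI. The day 1 Sf3a3 call ended, at 0.672 (0.425 to 1.12), when cells with up to 6000 genes were kept. Of 9 PRPF genes compared, Prpf38b (0.530) and Prpf4b, a kinase (0.635), were called lower on day 1 (background 23.3%). The Prpf38b call ended in thinned cells (0.522, 0.283 to 1.01) and that of Prpf4b with classes from clustering (0.719) and with the other denominator (0.678). On day 7 Prpf4b (0.650) and Prpf6 (0.488, 0.243 to 0.992) were called lower. The day 7 Prpf4b call ended with classes from clustering (0.869), the other denominator (0.667) and without the highest doublet scores (0.675), and the Prpf6 call in thinned cells (0.938, 0.135 to 10.4), with up to 6000 genes (0.565), at most 5% mitochondrial UMIs (0.498), the other denominator (0.501) and without cells that had a cell cycle UMI (0.585).

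Of the 20 hnRNP genes, 3 were called higher and 2 lower in microglia-like cells on day 1 (background 15.5% and 23.3%). Hnrnpl, which regulates exon inclusion, was called on every day. It had 61.3 CPM after sham surgery and 119, 111 and 123 CPM on days 1, 3 and 7, with ratios of 1.93 (1.27 to 3.08), 1.81 (1.17 to 2.92) and 2.005 (1.28 to 3.26). The sham library was the low one. In thinned cells the ratios were 2.09 (0.900 to 5.94), 2.002 (0.828 to 5.85) and 1.64 (0.641 to 4.97), and none was called. Hnrnpm and Hnrnpab were called higher on day 1 at 2.01 and 1.76. Hnrnpm overlaps March2 on the same strand, so that its reads may be shared. In thinned cells Hnrnpm was at 1.13 and Hnrnpab at 1.74 (0.896 to 3.78), and neither was called. Hnrnpab was also not called without cells that had a cell cycle UMI (1.22). Hnrnph3 was called lower at 0.432 (0.238 to 0.817) and Hnrnpdl at 0.646. Neither was called with classes from clustering (0.651 and 0.675) or in thinned cells (0.929, 0.251 to 5.13, and 0.745), and Hnrnpdl was not called with the other denominator (0.690). On day 7, Hnrnpa2b1 was at 412 CPM against 258 CPM in the sham library, a ratio of 1.60 (1.28 to 2.01), and Hnrnpa0 (1.68) and Hnrnpab (1.59) were called with it. In thinned cells these 3 genes were at 1.17 (0.779 to 1.80), 1.10 and 1.55 and were not called. Day 3 had 2 members higher and 3 lower (background 8.68% and 8.13%), and day 7 had 4 and 6 (6.56% and 6.84%). In thinned cells no member was called higher on day 3 or day 7.

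**Figure D3:**
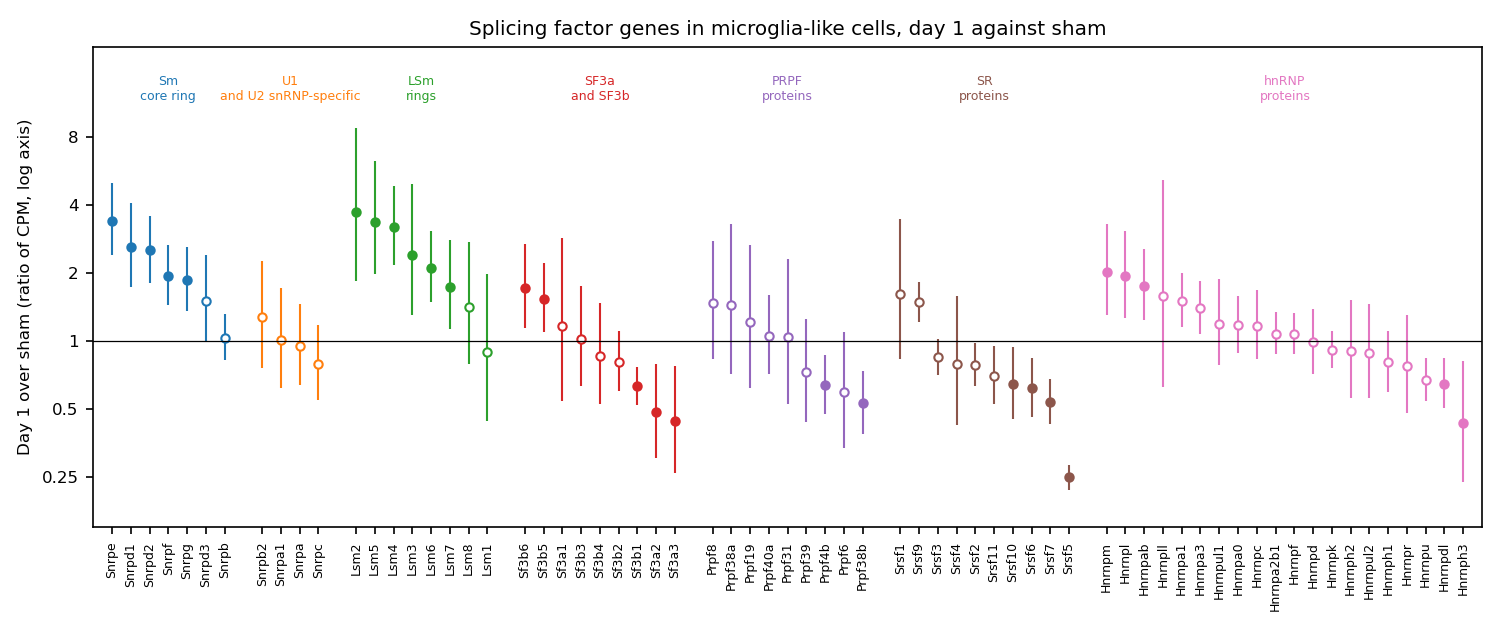
Ratio of day 1 to sham (log axis) for the 67 members that passed the level limit in microglia-like cells, by role; filled points were called higher or lower, open points were not, and bars are exact 95% counting intervals. The Sm and LSm genes lie mostly above 1, up to 3.72 for Lsm2, and Srsf5 lies lowest at 0.249.

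To show the genes at both ends of the day 1 comparison, the promoter windows of the 2 members with the largest called ratios in each direction, with 5 CPM added, are printed, from RefSeq on GRCm38.p6. Each runs from 250 bases before to 50 bases after the annotated start, 5′ to 3′ on the strand of the gene. Capitals mark the motifs searched on both strands. These were the ETS letters CCGGAAG, the E-box letters CACGTG, the NFY letters CCAAT and the TATA box letters TATAAA, and matches may overlap. Snrpe (ENSMUSG00000090553, chr1:133610231-133610530, reverse strand) and Lsm2 (ENSMUSG00000007050, chr17:34981604-34981903, forward strand) were the highest members of day 1. Srsf5 (ENSMUSG00000021134, chr12:80945249-80945548, forward strand) and Sf3a3 (ENSMUSG00000028902, chr4:124714611-124714910, forward strand) were the lowest.
Snrpe: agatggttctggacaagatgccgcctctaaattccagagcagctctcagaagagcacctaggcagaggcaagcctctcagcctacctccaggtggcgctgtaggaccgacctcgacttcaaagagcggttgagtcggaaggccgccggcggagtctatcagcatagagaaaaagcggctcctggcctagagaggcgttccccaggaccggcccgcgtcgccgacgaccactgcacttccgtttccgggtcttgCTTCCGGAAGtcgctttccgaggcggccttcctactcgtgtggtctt
Lsm2: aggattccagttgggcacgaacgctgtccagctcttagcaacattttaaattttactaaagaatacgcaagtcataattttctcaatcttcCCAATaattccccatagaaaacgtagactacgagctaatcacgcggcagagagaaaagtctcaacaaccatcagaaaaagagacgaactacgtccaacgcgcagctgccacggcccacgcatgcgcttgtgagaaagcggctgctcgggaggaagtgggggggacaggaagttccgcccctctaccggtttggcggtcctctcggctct
Srsf5: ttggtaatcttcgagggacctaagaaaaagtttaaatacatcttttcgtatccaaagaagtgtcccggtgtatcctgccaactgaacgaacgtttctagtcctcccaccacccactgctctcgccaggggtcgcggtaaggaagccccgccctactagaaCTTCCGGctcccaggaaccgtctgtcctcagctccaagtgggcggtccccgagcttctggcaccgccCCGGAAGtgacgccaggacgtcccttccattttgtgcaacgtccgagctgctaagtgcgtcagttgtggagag
Sf3a3: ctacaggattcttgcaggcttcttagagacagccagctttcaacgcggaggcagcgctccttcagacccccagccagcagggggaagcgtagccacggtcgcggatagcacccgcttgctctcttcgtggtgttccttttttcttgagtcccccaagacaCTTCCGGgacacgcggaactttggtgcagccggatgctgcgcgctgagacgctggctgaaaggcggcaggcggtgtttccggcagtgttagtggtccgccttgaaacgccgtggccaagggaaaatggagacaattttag

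The Snrpe, Srsf5 and Sf3a3 windows held the ETS letters and the Lsm2 window held CCAAT. Of 73 members, 63 had a window in the table. The ETS letters were in 30.6% of the 85 member windows and in 8.86% of all 32851 windows, and CCAAT in 45.9% and 37.4%. Among members with a window, the ETS letters were in 4 of 13 called higher, 5 of 11 called lower and 11 of 34 not called. A match describes letters in a window and nothing more.

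Other measures moved with the day 1 difference in microglia-like cells. Ribosomal protein genes summed to 86385 CPM after sham and to 168629, 121443 and 127306 CPM on days 1, 3 and 7. Malat1, a nuclear RNA, stood at 31331, 7833, 13395 and 17982 CPM. The list of 8 immediate-early genes, which respond quickly to stimulation and to dissociation, stood at 28813, 7577, 16999 and 22633 CPM. All 3 measures had day 1 at one extreme and sham at the other.

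Transcript length moved with it as well. The 16 members called higher on day 1 had a median spliced length of 990 bases, the 11 called lower 2752 bases and the 40 not called 2669.5 bases. By this median the members called higher were the short ones, and those called lower lay near those not called. Over all genes compared, the median log2 ratio of day 1 went from 0.75 below 1000 bases to -0.49 from 4500 bases on. For the 10 members below 1000 bases it was 1.23, and for the 11 from 4500 bases on -0.02. The part of these measures in the role split was not tested.

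The share of cells with a cell cycle UMI was highest in day 1 microglia-like cells, and these cells held more UMIs of the ring genes. At 1000 UMIs per cell, 148 of 392 day 1 microglia-like cells (37.8%, 32.9 to 42.8%) had at least 1 UMI of the 12 cell cycle genes, against 1 of 91 sham cells, 23 of 250 on day 3 and 8 of 194 on day 7. Unthinned, the shares were 9.76%, 56.1%, 18.3% and 13.4%. Oligodendrocyte-like cells, a class that should not divide, had thinned shares of 3.39%, 7.36%, 5.74% and 4.77%, so that the sham and day 7 shares of microglia-like cells were not above background. Median depths before thinning were 1889 to 2903 UMIs in microglia-like and 4836 to 7902 UMIs in oligodendrocyte-like cells. Birc5 (201 CPM), Ube2c (160 CPM) and Cdk1 (87.4 CPM) led the list on day 1, and in the sham library Birc5 and Ube2c had no UMI.

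Within the day 1 library, cells with such a UMI had 9.94 member UMIs per 1000, and cells without 7.68, a ratio of 1.29 (1.21 to 1.39). The Sm ring was 1.75 (1.48 to 2.07) times and the LSm rings 1.96 (1.56 to 2.48) times as high in them. SR proteins were at 1.02 (0.874 to 1.19). On day 3 the ratio of all members was 1.26 (1.10 to 1.44). When all microglia-like cells with a cell cycle UMI were left out, which removed 280 of 499 on day 1, the day 1 ratio to sham was 1.38 (1.20 to 1.61) for the Sm ring and 1.37 (1.11 to 1.70) for the LSm rings. It was then 0.836 (0.797 to 0.876) for all members. Of 66 members compared, 5 were called higher and 14 lower, against 11.1% and 17.9% of all genes under the same exclusion. The 5 were Snrpe, Snrpd2, Lsm4, Hnrnpl and Hnrnpm, all among the 16 called before. The sums of the ring genes thus stayed above sham in the remaining cells at a smaller ratio, with 3 ring genes still called. All 11 members called lower kept their call.

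Srsf5 was higher in cells with more immediate-early UMIs. Thinned microglia-like cells of each library were split at the median of their immediate-early UMIs. Cells above it had 1.51 (1.01 to 2.27) times the Srsf5 UMIs of the other cells in the sham library, and 2.22 (1.45 to 3.45), 3.50 (2.43 to 5.15) and 2.26 (1.61 to 3.21) times on days 1, 3 and 7. The ratio lay above 1 in all 4 libraries. For the other SR genes together it was 1.02, 1.02, 1.31 and 1.32. This split was chosen after the data were seen.

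Markers of other classes were also summed in microglia-like cells. The 6 border macrophage markers summed to 12.8, 190, 50.5 and 156 CPM in sham and then days 1, 3 and 7, with Lyve1 at 0 in all 4, and the 6 monocyte markers to 690, 975, 845 and 760 CPM, with Ly6c2 at 0. The 7 choroid plexus markers summed to between 816 and 1779 CPM. The 7 neutrophil markers summed to between 80.0 and 260 CPM. Several lists were lower on day 1 than after sham. The 5 erythrocyte markers stood at 278, 19.8, 141 and 48.7 CPM, with Alas2 at 0 in all 4 libraries, the 6 vascular smooth muscle markers at 230, 84.0, 134 and 201 CPM, the 6 oligodendrocyte markers at 171, 63.7, 74.5 and 91.1 CPM and the 6 pericyte markers at 102, 33.6, 39.7 and 58.3 CPM. Their part in the day 1 difference was not tested. The 12 microglia markers summed to between 40171 and 49894 CPM. At least 4 of the markers were detected in 1239 of the 1246 cells.

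Microglia-like cells with an Itgb2 UMI did not hold more splicing factor UMIs in the main comparison. This split by UMIs is not the subcluster of the study, which was not rebuilt here. At 1000 UMIs per cell, 12 of 91 cells were Itgb2-positive in the sham library, 38 of 392 on day 1, 60 of 250 on day 3 and 39 of 194 on day 7. In the 4 other main classes the share was at most 0.226%. The Itgb2-positive cells had 8.17, 6.97, 8.32 and 8.72 member UMIs per 1000 in the 4 libraries, and the Itgb2-negative cells 8.41, 8.70, 8.72 and 8.47. The ratios were 0.972 (0.778 to 1.20) in sham cells and 0.801 (0.704 to 0.909) on day 1. The later ratios were 0.954 (0.862 to 1.06) for day 3 and 1.03 (0.911 to 1.16) for day 7. On day 1 Itgb2-positive cells were the lower ones. Among day 1 cells without a cell cycle UMI the ratio was 0.801 (0.680 to 0.939). It moved to 0.977 (0.888 to 1.07) when cells with up to 6000 genes were kept, which ends the day 1 difference. At 500 UMIs the day 3 ratio was 1.21 (1.03 to 1.42). Many Itgb2-negative cells may express the gene without a sampled UMI, since 36.9% of the day 1 cells had one before thinning and 9.69% after.

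By gene, 29 members reached 20 UMIs among the thinned cells in each of the 3 tMCAO libraries. Of these, 2 lay above 1 on all 3 days and 8 below, against 11.5% and 17.9% of the 1239 genes of the same depth. With the 3 days pooled, 1 of the 29 had an interval above 1 and 3 had one below. Among the 1239 genes these shares were 9.77% and 10.6%, so such members were not more frequent than such genes at large. Because the share of positive cells and the levels differed between days, a common ratio was taken within libraries, a choice made after the data were seen. Prpf38b, a PRPF protein, had ratios of 2.07, 2.19 and 1.33 on days 1, 3 and 7, and a common ratio of 1.89 (1.19 to 2.93). Its sham ratio was 3.29 (0.725 to 12.3). Srsf10 had 1.41, 1.06 and 2.84, in common 1.58 (0.934 to 2.59), and in sham cells no UMI in positive and 5 in negative cells. At the other end, Snrpb had 0.918, 0.279 and 0.442, in common 0.521 (0.276 to 0.910). Hnrnpk (common ratio 0.687, 0.463 to 0.990) was also below 1 on each of the 3 days. In the sham library both lay above 1, at 1.98 (0.649 to 5.10) and 1.65 (0.483 to 4.52), with intervals that held 1. Snrpe (0.686, 0.400 to 1.12), Hnrnpm (0.605) and Hnrnpa1 (0.771) had common intervals that held 1, and the sham ratio of Snrpe was 3.29 (0.298 to 23.0).

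**Figure D4:**
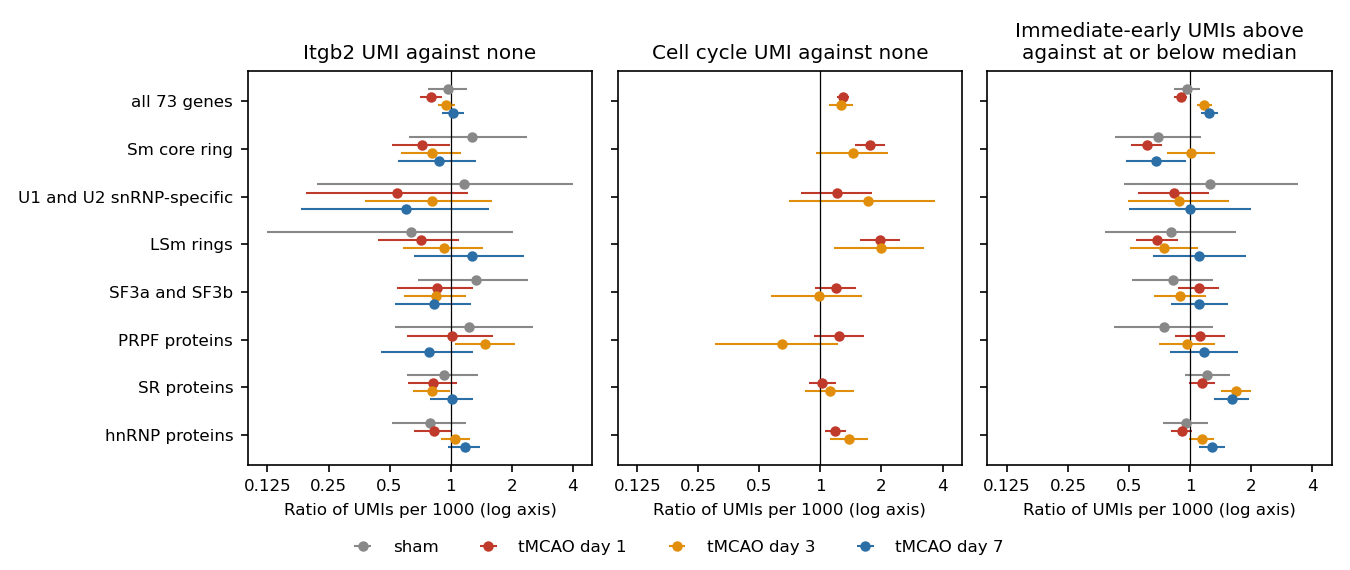
Ratio of UMIs per 1000 (log axis) between microglia-like cells of the same library, with exact 95% counting intervals: cells with against without an Itgb2 UMI, with against without a cell cycle UMI (day 1 and day 3 only), and above against at or below the library's median of immediate-early UMIs. For all 73 genes the Itgb2 ratios lie between 0.801 and 1.03, and the day 1 cell cycle ratios reach 1.96 for the LSm rings.

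Summed, the hnRNP genes were higher than sham in every main class on all 3 days, most on day 7. Their sum had a day 7 ratio of 1.26 (1.17 to 1.35) in microglia-like, 1.34 (1.33 to 1.36) in endothelial-like, 1.33 (1.30 to 1.36) in oligodendrocyte-like, 1.45 (1.42 to 1.48) in vascular smooth muscle-like and 1.45 (1.38 to 1.52) in pericyte-like cells. In the same order it was 1.06 (0.993 to 1.13), 1.05, 1.13, 1.05 and 1.16 on day 1. On day 3 it was 1.085, 1.12, 1.17, 1.19 and 1.22. The day 1 microglia-like interval held 1, and all others lay above 1. The sham library was thus the lowest for this sum in each class. Of the 20 genes, 18 lay above sham on day 7 in all 5 classes, against 22.5% of the 3445 genes compared in all 5. The exceptions were Hnrnpdl and Hnrnph3. Because the 5 classes come from the same libraries, with 1 sham library for every day, a difference between libraries and one between groups cannot be told apart.

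Hnrnpa2b1, which binds nascent RNA and transport signals, was called higher on day 7 in all 5 classes. The microglia-like call ended in thinned cells (1.17) and without cells that had a cell cycle UMI, and the endothelial-like call in thinned cells (1.497). In endothelial-like cells its sham level was 261 CPM, followed by 276, 314 and 434 CPM on days 1, 3 and 7, a day 7 ratio of 1.66 (1.60 to 1.73). In vascular smooth muscle-like cells it stood at 174, 207, 189 and 323 CPM, a ratio of 1.86 (1.72 to 2.01). In pericyte-like cells it stood at 288, 427, 371 and 521 CPM, a ratio of 1.81 (1.53 to 2.14). Day 7 was the highest library in each, and the ratio in oligodendrocyte-like cells was 1.63 (1.52 to 1.76).

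Hnrnpa3 was called in the 4 classes other than microglia-like cells, with day 7 ratios of 1.55, 1.71, 1.73 and 1.71 in endothelial-like, oligodendrocyte-like, vascular smooth muscle-like and pericyte-like cells. Hnrnpa3 has a near-identical counted copy, Gm6793, so that its reads may have been split. Hnrnph1 was called in endothelial-like (1.69, 1.60 to 1.78) and vascular smooth muscle-like cells (1.78, 1.59 to 1.98). In thinned endothelial-like cells it was at 1.37 (1.25 to 1.49) and not called, and Hnrnpa3 lost its call there too. Hnrnph2 had the largest ratio in oligodendrocyte-like cells, 1.90 (1.67 to 2.17), with 60.2, 68.7, 76.3 and 114 CPM in the 4 libraries. Hnrnpr had 134, 132, 167 and 240 CPM in pericyte-like cells, a ratio of 1.78 (1.40 to 2.29). Prpf39, of the PRPF group, had 59.1, 64.0, 72.8 and 103 CPM in endothelial-like cells, a ratio of 1.75 (1.62 to 1.89).

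Hnrnpl was called higher on all 3 days in vascular smooth muscle-like cells. It stood there at 102, 162, 161 and 163 CPM, with ratios of 1.59 (1.40 to 1.81), 1.58 (1.41 to 1.78) and 1.61 (1.45 to 1.79). In pericyte-like cells it was called on day 1 (1.69) and day 7 (1.81). As in microglia-like cells, the sham library was the low one. With at most 5% mitochondrial UMIs the vascular smooth muscle-like ratios were 1.40, 1.40 and 1.38, and none was called. The day 3 call also ended with the other denominator (1.51), and those of days 1 and 3 with 20 CPM in place of 5 CPM added.

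The counts of called members followed the background in part. On day 7, 6 of 71 members were called higher and none lower in endothelial-like cells (background 7.67% and 2.55%). In oligodendrocyte-like cells it was 6 and 3 of 70 (14% and 4.87%), in vascular smooth muscle-like cells 11 and 1 of 69 (12.9% and 3.33%), and in pericyte-like cells 8 and 4 of 71 (12.4% and 4.98%). Of the 31 calls of a higher level, 24 were hnRNP genes. In thinned cells 1 of the 6 endothelial-like calls of a higher level was left, Prpf39 at 1.56, and 8 of 11, 6 of 6 and 7 of 8 were left in vascular smooth muscle-like, oligodendrocyte-like and pericyte-like cells. With at most 5% mitochondrial UMIs 5 of the 11 vascular smooth muscle-like calls were left. The median log2 ratio of the 20 hnRNP genes ran from 0.39 to 0.48 in the 4 classes, and that of all genes from 0.05 to 0.10.

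Length again moved with the day 7 difference, in the opposite sense to day 1 of microglia-like cells. Over all genes compared, the median log2 ratio below 1000 bases and from 4500 bases on was -0.25 and 0.33 in endothelial-like, -0.33 and 0.46 in oligodendrocyte-like, -0.26 and 0.44 in vascular smooth muscle-like and -0.24 and 0.38 in pericyte-like cells. The members had -0.21 and 0.34, -0.26 and 0.43, -0.23 and 0.36, and -0.19 and 0.55. Gm42418 was lower on day 7 than after sham in all 5 classes, at 6160 against 13780 CPM in endothelial-like cells. Neat1 was called higher in all but microglia-like cells. The immediate-early sum moved from 10941 to 13616 CPM in endothelial-like, 2984 to 3467 in oligodendrocyte-like and 12837 to 17690 in vascular smooth muscle-like cells. It fell from 7281 to 4591 CPM in pericyte-like and 28813 to 22633 in microglia-like cells. The part of length and these measures in the hnRNP difference was not tested.

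Summed, the ring genes stood below sham on day 7 in the same 4 classes. The Sm ring had ratios of 0.834, 0.727, 0.831 and 0.836 in endothelial-like, oligodendrocyte-like, vascular smooth muscle-like and pericyte-like cells. The LSm rings had 0.839, 0.778, 0.794 and 0.885, and the last interval (0.776 to 1.01) held 1. By gene, 4 of 7 Sm and 4 of 8 LSm genes lay below sham in all 5 classes, against 20.6% of the 3445 genes compared. Some lay above it in single classes, such as Lsm5 (1.66) and Snrpf (1.19) in pericyte-like and Lsm2 (1.10) in oligodendrocyte-like cells. All genes below 1000 bases were also lower in these classes, at the medians given above, and the part of length was not tested. Lsm4 was called lower in oligodendrocyte-like (0.624), vascular smooth muscle-like (0.621) and pericyte-like cells (0.649). The oligodendrocyte-like call ended with up to 6000 genes (0.667). Sf3a2 (0.590) and Snrpc, a U1 protein (0.631), were called lower in pericyte-like cells. With classes from clustering none of the 4 pericyte-like calls was left, with ratios of 0.733 for Lsm4, 0.665 for Sf3a2, 0.726 for Snrpc and 0.640 for Snrpn.

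On day 1 the Sm ring was above sham in 3 of these classes too, at smaller ratios than in microglia-like cells. The Sm ring ratio was 1.28 (1.254 to 1.30) in endothelial-like, 1.18 (1.14 to 1.23) in vascular smooth muscle-like and 1.21 (1.11 to 1.32) in pericyte-like cells, and 0.998 (0.970 to 1.03) in oligodendrocyte-like cells. The LSm ratio was 1.23, 1.10, 1.11 and 1.20 in endothelial-like, oligodendrocyte-like, vascular smooth muscle-like and pericyte-like cells. Over all genes below 1000 bases the median log2 ratio of day 1 was 0.27, 0.07, 0.14 and 0.24 in the same order. That of the Sm ring genes was 0.42, 0.10, 0.28 and 0.40, and that of the LSm genes 0.23, 0.07, 0.08 and 0.24. The part of length in these ratios was not tested. Snrpf was called in endothelial-like cells, with 134 CPM in the sham library and 218, 173 and 136 CPM on days 1, 3 and 7, a day 1 ratio of 1.62 (1.54 to 1.71). It was also called in pericyte-like cells (1.80 on day 1, 1.53 on day 3). The day 3 call ended with classes from clustering (1.30, 1.07 to 1.59), at most 5% mitochondrial UMIs (1.37) and the other denominator (1.44), and in thinned cells (1.52, 0.986 to 2.43). Lsm5 was called in pericyte-like cells on day 1 (2.69, 1.65 to 4.57) and day 3 (2.05, 1.26 to 3.48), and in oligodendrocyte-like cells on day 1 (1.67). Lsm2 (1.79) was called with it in oligodendrocyte-like cells. In pericyte-like cells Snrpb2, a U2 protein (1.80), was called on day 1 and Sf3b4 (1.88) on day 3. The Snrpb2 call ended with classes from clustering (1.24), and neither Lsm5 call in pericyte-like cells was left after thinning (1.93 and 1.74).

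**Figure D5:**
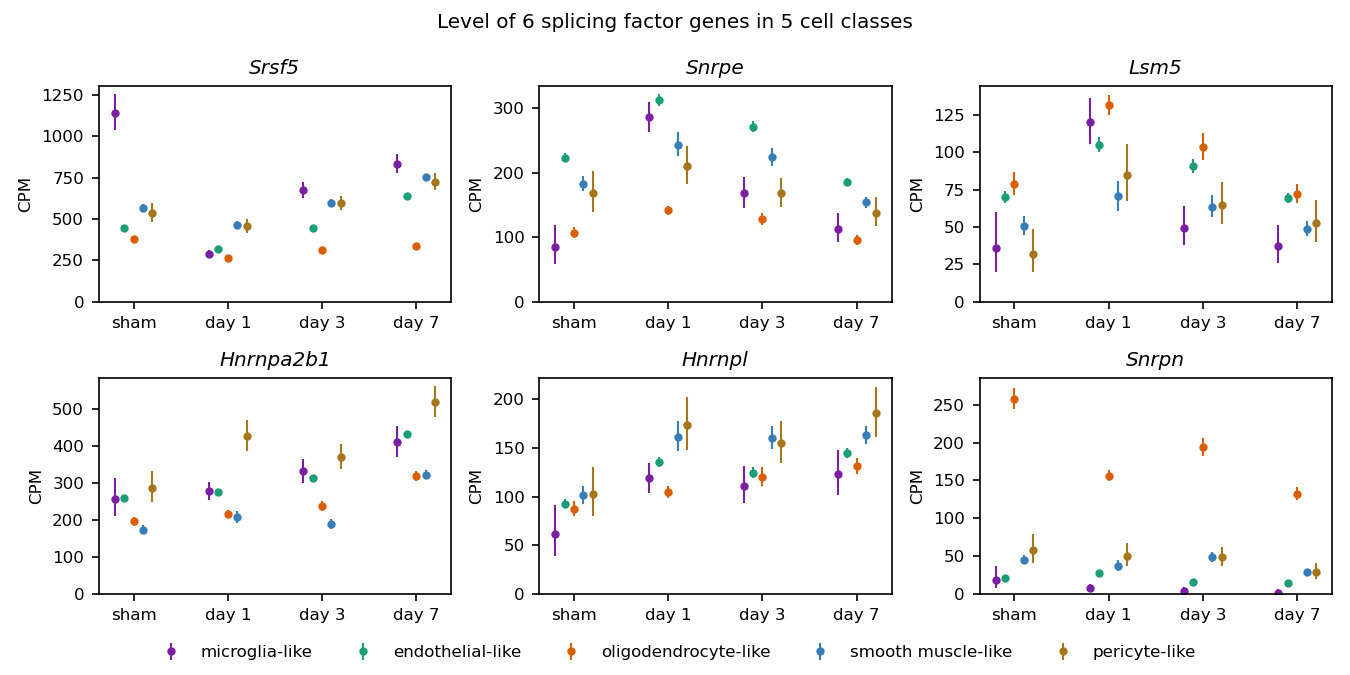
Level (CPM, linear axis from 0) of Srsf5, Snrpe, Lsm5, Hnrnpa2b1, Hnrnpl and Snrpn in 5 classes and the 4 libraries, with exact 95% counting intervals. Srsf5 in microglia-like cells drops from 1144 to 285 CPM between sham and day 1, Hnrnpa2b1 is highest on day 7 in all 5 classes, and Snrpn stands apart in oligodendrocyte-like cells at 132 to 258 CPM.

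Called decreases on day 1 outside microglia-like cells were few. Endothelial-like cells had 1 member higher and none lower of 71 (background 4.26% and 7.28%). Oligodendrocyte-like cells had 2 and 2 of 70 (4.78% and 5.87%), vascular smooth muscle-like cells 1 and 3 of 69 (3.81% and 7.65%), and pericyte-like cells 6 and 4 of 71 (7.42% and 7.19%). Srsf3, an SR protein that also acts in mRNA export, was called lower in oligodendrocyte-like (0.618, 0.579 to 0.660) and pericyte-like cells (0.581, 0.491 to 0.687). Sf3b1 (0.611), Prpf18 (0.566) and Sf3a3 (0.628) were called lower in vascular smooth muscle-like cells, and Sf3b2 (0.562), Prpf38a (0.575) and Srsf4 (0.620) in pericyte-like cells. With classes from clustering Sf3b1 (0.667), Prpf18 (0.633), Prpf38a (0.652) and Srsf4 (0.709) were not called. In thinned cells Prpf18 (0.587, 0.289 to 1.15), Sf3a3 (0.770, 0.454 to 1.29), Prpf38a (0.911, 0.357 to 2.51) and Sf3b2 (0.748, 0.510 to 1.11) were not, so that none of the 6 was called under both choices. Srsf5 had day 1 ratios of 0.719, 0.690, 0.812 and 0.849 in endothelial-like, oligodendrocyte-like, vascular smooth muscle-like and pericyte-like cells and was not called in them. On day 3 no member was called in endothelial-like or oligodendrocyte-like cells (background 4.01% and 4.35%, 2.2% and 0.884%), 1 was called higher in vascular smooth muscle-like cells (1.96%) and 3 in pericyte-like cells (5.77%), and none lower (1.87% and 3.72%).

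Other genes of the pathway were counted from lists that hold no member. Of 42 further core splicing genes, 35 passed the level limit in microglia-like cells, and on day 1, 1 was called higher and 14 lower, with a median log2 ratio of -0.36 (background 15.5% and 23.3%, median -0.15). U2af2, which reads the 3′ splice site, was the one called higher, at 35.8, 78.6, 80.3 and 53.0 CPM and a ratio of 2.20 (1.27 to 4.11). Rbm39 was at 669, 269, 485 and 472 CPM, a ratio of 0.402 (0.346 to 0.467), and Tra2b, an SR-like protein, at 345, 142, 217 and 267 CPM, a ratio of 0.411 (0.334 to 0.508). Of 13 tissue-specific splicing regulators compared, none was called higher and 7 lower (the same background), with Qk at 0.497 (0.434 to 0.570) and Mbnl1 at 0.618 (0.514 to 0.747). Of 5 SR protein kinases, Clk3 alone was called, at 0.454 (0.290 to 0.727). None of 4 SMN complex genes, which assemble the Sm ring, was called, and only those 4 of 12 passed the level limit.

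On day 7 some tissue-specific regulators were called higher in the other classes and none lower. It was 3 of 14 in endothelial-like (background 7.67%), 3 of 12 in oligodendrocyte-like (14%), 5 of 13 in vascular smooth muscle-like (12.9%) and 4 of 13 in pericyte-like cells (12.4%), so that most were not called. Khdrbs1 had ratios of 1.54 (1.44 to 1.65) in endothelial-like, 1.64 (1.46 to 1.84) in oligodendrocyte-like and 2.02 (1.76 to 2.33) in vascular smooth muscle-like cells. Ptbp2 had 2.08 (1.87 to 2.33) in endothelial-like and 1.98 (1.19 to 3.44) in pericyte-like cells.

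Between classes, Snrpn had the widest spread. Snrpn encodes the brain-enriched relative of Snrpb and takes its place in the Sm ring. It lies at chr7:59982495-60140219 on the reverse strand of GRCm38 and overlaps Snurf and Gm38393 on the same strand, so that its counts may include or lack reads of these. In oligodendrocyte-like cells it stood at 258, 156, 194 and 132 CPM in sham and then days 1, 3 and 7. In endothelial-like cells it stood at 21.1, 27.4, 15.8 and 13.5 CPM, and in microglia-like cells at 17.9, 7.41, 3.31 and 1.06 CPM, the last of these 1 UMI. Against the pooled other 4 classes, the oligodendrocyte-like ratio lay between 5.62 and 9.35. At least 1.5-fold higher in all 4 libraries were 14.9% of genes and 1 of 70 members in this class. Snrpn was also called lower in oligodendrocyte-like cells on day 1 (0.606, 0.565 to 0.650) and day 7 (0.511, 0.470 to 0.556), and in pericyte-like cells on day 7 (0.497, 0.301 to 0.817).

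Neuron-like cells had the highest Snrpn level, at 464 CPM in the sham library, 398 on day 1 and 523 on day 3, while day 7 had too few cells. Of the UMIs of Snrpn and Snrpb together, Snrpn held 69.3% (63.5 to 74.8%) in sham neuron-like cells, 65.1% on day 1 and 63.9% on day 3. The share was 50.6% (48.7 to 52.5%) in sham oligodendrocyte-like cells and 39.2 to 41.6% on the 3 days. In choroid plexus-like cells it was 43.1 to 47.4%, in endothelial-like cells 4.79 to 7.74% and in microglia-like cells 0.671 to 7.22%. Neuron-like cells thus had the highest share in every library where they could be compared. Snrpn and Snrpb are similar in sequence, and any reads matching both could not be placed. In the last 400 bases of their transcripts, neither matched the other over at least 100 bases at 98% identity.

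Other differences among the 5 main classes were smaller. Their ratios are to the pooled other 4 classes, and a single class can lie closer. Srsf9 lay 1.72 to 2.14-fold above this pool in microglia-like cells, where 1 of 70 members and 9.38% of genes were at least 1.5-fold higher in all 4 libraries. In the sham library it stood at 281 CPM, against 198 CPM in pericyte-like cells. Hnrnph3 (0.267 to 0.464) and Srsf4 (0.460 to 0.497) lay below the pool, among 8 such members (35.8% of genes). Sham Srsf4 stood at 33.2 CPM, against 42.3 CPM in oligodendrocyte-like cells. Among these 5 classes, Prpf4 was highest in endothelial-like cells (1.78 to 2.45-fold the pool, 1 of 3 members, 19.6% of genes, with 1 lower, 18.8%). Sf3b3 (1.77 to 2.26-fold the pool) and Hnrnph1 (1.61 to 1.86-fold) were highest in pericyte-like cells, 2 of 5 members (14.7%), with none lower (17.4%). On day 7 Hnrnph1 stood at 292 CPM there, against 217 CPM in endothelial-like cells. Of the 5, Hnrnph1 was lowest in oligodendrocyte-like cells (0.379 to 0.496 of the pool, 1 of 11 members, 36.4%). Smaller classes went beyond them in some libraries. In neuron-like cells of the sham, day 1 and day 3 libraries Prpf4 stood at 29.3, 20.5 and 47.3 CPM, against 41.9, 29.3 and 31.6 CPM in endothelial-like cells, higher on day 3 only. Sf3b3 stood at 105, 69.95 and 56.8 CPM there, against 95.1, 92.5 and 94.4 CPM in pericyte-like cells, higher in the sham library only. Hnrnph1 stood at 235, 260 and 230.2 CPM, against 199, 211 and 232 CPM, and was higher in the sham and day 1 libraries. In choroid plexus-like cells Hnrnph1, at 37.3, 74.0 and 69.2 CPM in the sham, day 1 and day 7 libraries, was below oligodendrocyte-like cells. The shares of members that set a class apart were below those of all genes in each case.

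Neuron-like cells had the highest summed level, in a class whose leading genes outside the markers were Calb2, Snhg11 and Igfbpl1. The class was mixed, and 99.7% of it fell into clusters named neuron with different leading genes. Those of 1 cluster (446 cells) included Igfbpl1, Sox11 and Dcx, and those of the other (541 cells) Snhg11, Calb2 and Syt1. The part of each cluster in the level was not tested. The 100, 494 and 83 neuron-like cells in the sham, day 1 and day 3 libraries stood at 1.67 (1.63 to 1.72), 1.53 (1.504 to 1.55) and 1.85 (1.80 to 1.90) times the pooled 5 main classes. Their cell cycle list stood at 100, 488 and 91.4 CPM. In the sham library 42 of 72 members (58.3%) were called higher, against 33.9% of genes. On day 1 it was 33 of 71 (46.5%, against 41.5%) and on day 3, 43 of 72 (59.7%, against 31.7%). Called lower were 3, 2 and 0 members (22.3%, 21.4% and 23% of genes). Hnrnpa1, a core hnRNP protein, stood at 530, 416 and 750 CPM in these cells, and at 109, 141 and 127 CPM in the pooled classes. Hnrnpk, which binds C-rich RNA, stood at 567, 490 and 870 CPM, against 322, 373 and 411 CPM, and was not called on day 1. Oligodendrocyte progenitor-like cells of day 1, 200 cells, had 12284 CPM, and 27 of 71 members called higher (38.0%, against 37.1% of genes) and 1 lower (18.9%).

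Choroid plexus-like cells, which secrete cerebrospinal fluid, stood at 0.663, 0.560 and 0.632 times the pooled 5 main classes in the sham, day 1 and day 7 libraries. Of the members compared, 39 of 68, 49 of 68 and 40 of 71 were called lower in them, against 45.5%, 61.3% and 47.7% of all genes, and 4, 1 and 3 higher, against 16.3%, 12.8% and 16.1%. T or NK-like cells of day 7 stood at 1.24 (1.21 to 1.28) times the pooled classes, with 18 of 71 members called higher and 7 lower, against 17.1% and 39.9% of genes.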

How the data were processed

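Unnormalized UMI counts for every gene and barcode were deposited by the authors from 10x Genomics 3′ libraries. The submitters' processing notes name Cell Ranger 3.0.1, Seurat 4.1.2 and a human build, the header names Cell Ranger 4.0.0, and the gene identifiers are those of mouse. All 73 members matched GENCODE vM21 on GRCm38. Members and gene lists were chosen with earlier results of these data known.

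The filter kept barcodes of 200 to 3000 genes in which mitochondria gave no more than 10% of UMIs. A cell was given the class with the highest share of markers detected if it had at least 3 markers and 1.5 times the share of the next class; cells at 1.25 to 1.75 times were counted as near the limit. Raw counts were summed by library and class and divided by all UMIs of the class (CPM). Ratios had exact 95% intervals from the binomial distribution of the 2 counts. UMIs are molecules counted once, and the intervals cover counting error only. With 1 library per group no test was made. Genes with a mean of at least 20 CPM were compared, with 5 CPM added and a fold of 1.5.

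For splits within a library, cells were thinned to 1000 UMIs and shallower cells left out. Scrublet marked under 0.5% of the cells in 3 libraries and so did not work there, and doublets were kept; leaving out the highest 8% of scores was an alternative added after seeing the data, as were the cell cycle exclusion, the immediate-early split and the common Itgb2 ratio within libraries, with an exact interval conditional on the counts of each library.

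Genes were named by a rule: the 5 members called in each direction with the largest ratios in microglia-like cells, 3 in other classes, the pair Snrpn and Snrpb, the leading members between classes and by Itgb2, and the member with the highest mean level of a role. A few other called members and those set against them were named after their values were seen. Alternatives were the gene, mitochondrial, level and fold limits, CPM added, clustering, denominator, thinning and the sum without Srsf5. The intervals and ratios were tested on simulated Poisson counts, which had no further variation between cells or libraries. This checked the calculation only. Python 3.11.15, numpy 2.4.6, pandas 2.3.3, scipy 1.17.1, scanpy 1.11.5, igraph 0.11.9, matplotlib 3.10.9 and BLAST 2.17.0 were used. Bulk RNA and proteomic data were not analysed here.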

Additional observations from a re-analysis of the deposited data

Results flagged for a closer look

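For some roles microglia-like cells stood on the other side of sham from another class, with both intervals leaving out 1. The differences between classes were not tested. On day 1, PRPF genes had a ratio to sham of 0.797 in microglia-like and 1.09 in oligodendrocyte-like cells. On day 3, SR proteins were at 0.808 in microglia-like cells, against 1.06 in endothelial-like, 1.06 in oligodendrocyte-like, 1.08 in vascular smooth muscle-like and 1.07 in pericyte-like cells. Without Srsf5 the microglia-like ratio of day 3 was 0.958 (0.876 to 1.05), and its interval held 1. On day 7 they were at 0.764, against 1.12 in endothelial-like and 1.06 in vascular smooth muscle-like cells. The SF3a and SF3b genes were then at 0.878 in microglia-like and 1.04 in endothelial-like cells. The vascular smooth muscle-like SR ratios fell below 1 with at most 5% mitochondrial UMIs, and that of day 7 also without Srsf5, at 0.9497 (0.921 to 0.980).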

How the results depend on the processing

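No paired analysis was possible because each group has 1 library and the labels give no replicate numbers. The 123 sham microglia-like cells limit the precision of every microglia-like ratio. Where a value moved, the cause was not tested. By construction, fewer genes were compared at the higher level limit, thinning left fewer UMIs and cells, and the higher fold was a stricter limit.

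With up to 6000 genes per cell, the day 1 microglia-like total was 1.12 and its Sm ring 2.24, 8 members were higher on day 3, 16 were higher on day 1 over the other 4 classes, neuron-like totals were 1.51 (sham) and 1.23 (day 1), choroid plexus-like 0.629 and 0.593, and the day 1 Itgb2 ratio 0.977. With at most 5% mitochondrial UMIs, vascular smooth muscle-like hnRNP genes on day 1 and SR genes on days 3 and 7 turned to 0.951, 0.957 and 0.973. The other classes then had 15 members lower on day 1 and 1 on day 3, and the class totals were 1.78 and 1.72 (neuron-like, sham and day 1) and 0.544 (choroid plexus-like, day 1).

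With classes from clustering, microglia-like SR genes were at 0.656 on day 1, the day 7 total at 1.03, 7 members were lower on day 1 and 7 higher on day 7, and 5 were lower on day 7 in the other classes. Neuron-like totals were 1.55 (sham) and 1.501 (day 1), and choroid plexus-like 0.712, 0.572 and 0.725 (sham, day 1, day 7). With mitochondrial, ribosomal protein, Malat1, Gm42418 and AY036118 UMIs out of the denominator, the day 1 microglia-like total was 1.07, with 6 members lower on day 1 and 3 on day 7, and 2 higher on day 3 in the other classes. Oligodendrocyte-like totals turned to 0.992 (day 1) and 0.998 (day 7) and their day 3 Sm ring to 1.00, and class totals were 1.73 (neuron-like, sham) and 0.536 (choroid plexus-like, day 1).

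Thinned to 1000 UMIs, the day 1 LSm ratio was 3.21, and Lsm2, left without a sham UMI, gave no ratio. In microglia-like cells 9 members were then higher and 7 lower on day 1, 0 and 1 on day 3, and 0 and 3 on day 7. In the other classes 14 were higher and 1 lower on day 3. Neuron-like totals were 1.63 (sham) and 1.749 (day 3), and oligodendrocyte-like U1 or U2 and SF3 genes on day 1 turned to 1.06 and 1.04. Without Srsf5 the microglia-like total was 1.12 on day 1 and turned to 1.01 on day 3, SR genes were at 0.859 on day 1, and vascular smooth muscle-like SR genes turned to 0.9497 on day 7.

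At 100 CPM or more, 9 members were higher on day 1 and 3 lower on day 7 in microglia-like cells; the other classes had 6 higher and 5 lower on day 1, 2 higher on day 3, and 19 higher and 5 lower on day 7. With 20 CPM added the microglia-like calls of Sf3b5, Srsf10, Hnrnpdl and Prpf4b (day 1), Sf3a2 (day 3) and Hnrnpab, Srsf6 and Prpf4b (day 7) ended, 3 of 6 endothelial-like calls of day 7 were left, and the other classes had 5 higher and 5 lower on day 1, 2 higher on day 3 and 4 lower on day 7. At 2-fold, microglia-like cells had 8 higher and 3 lower on day 1, 0 and 0 on day 3, and 0 and 2 on day 7, and the other classes 1 and 0 on day 1, 0 higher on day 3, and 0 and 0 on day 7.

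Without microglia-like cells that had a cell cycle UMI, chosen after seeing the data, the day 1 total was 0.836, the Sm ring 1.38 and the LSm rings 1.37, with 5 members higher, all 5 among the 16 of the reported comparison. Of these 16, all kept their call with up to 6000 genes, at most 5% mitochondrial UMIs, classes from clustering and the other denominator, and 9 in thinned cells. Of the 11 lower, 9, 11, 6, 6 and 5 kept it in that order. The Itgb2 ratio was 1.21 on day 3 at 500 UMIs, and 0.929 on day 1 and 0.897 on day 7 without thinning. Leaving out the 8% highest doublet scores ended single calls. In microglia-like cells these were Srsf10 (day 1), Srsf7 (day 3) and Prpf4b (day 7), and in the other classes Sf3a3 in vascular smooth muscle-like (day 1), Prpf8 in oligodendrocyte-like (day 7), and Snrpb2 and Snrpd1 (day 1), Snrpf (day 3) and Lsm4 (day 7) in pericyte-like cells.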

Other observations

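Several smaller classes were measured in few libraries. Ependymal-like cells of day 1 were at 1.22 and fibroblast-like cells of day 1 at 0.946. Astrocyte-like cells were at 0.876, 1.00 and 0.817 in the sham, day 1 and day 3 libraries. Erythrocyte-like cells, which lose their nuclei, held 279 CPM of the 73 genes in the sham library, 0.0330 times the pooled classes.

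Srsf12, an SR protein gene, had 26.9, 13.5 and 15.8 CPM in neuron-like cells of the sham, day 1 and day 3 libraries and no UMI in microglia-like cells of any library.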
